A study of Mus musculus with 4 samples.

Results

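The genes described here were 10 factors that build the respiratory chain of mitochondria, taken by symbol from a list of complex I and complex IV assembly factors. All 10 were found among the 23337 gene symbols of the mouse heart RNA-seq data. For complex I they were *Ndufaf1*, *Ndufaf2*, *Ndufaf3* and *Ndufaf4*, and for complex IV *Cox10*, *Cox11*, *Cox15*, *Cox17*, *Sco1* and *Surf1*. No threshold on a measured level entered the list, but it was chosen with earlier results of these data known. All 10 passed the filter on low values in every comparison.

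Hearts of 4 groups of C57BL6/J mice were compared. PIMT fl/fl mice, the controls, carry loxP sites around exons 3 and 4 of the gene for PIMT, a methyltransferase and nuclear receptor coactivator-binding protein listed in the files as *Tgs1*. The csPIMT-/- mice carry the same floxed alleles and a Cre recombinase driven by the α-myosin heavy chain promoter, so that the deletion is made in cardiomyocytes and not in the other cells of the heart. Each genotype was sampled young, at 2 months, and older, at 6 months. Dilated cardiomyopathy develops in csPIMT-/- mice. RNA of 5 hearts of male and female mice was pooled in each group, and each pool gave 1 library, so no difference at a single age has a replicate check.

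Complex I takes electrons from NADH and complex IV, cytochrome c oxidase, passes them to oxygen. Both are put together from subunits of nuclear and mitochondrial origin in steps that need helper proteins, which do not remain in the finished enzyme. Complex IV also needs heme A and copper, so several of its assembly factors make heme A or carry copper. The heart depends on both complexes for its ATP, and inherited loss of such factors is a known cause of cardiomyopathy and Leigh syndrome.

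The libraries held between 29823073 and 40705783 reads on genes. *Tgs1*, the deleted gene, had normalized counts of 580 (2 months) and 816 (6 months) in control hearts, and of 160 and 162 after the deletion. All 9 cardiomyocyte markers were detected in every library, and the ratio of their summed level was 0.760 at 2 months, with 1 of them lower by over 2-fold, and 0.481 at 6 months, with 2 lower. Of 7 fibroblast markers 1 was lower by over 2-fold at 2 months and 3 were higher at 6 months. Among 5 skeletal muscle markers 2 were lower and 1 higher at 2 months, and 4 higher at 6 months. For 4 smooth muscle markers 3 were higher at 2 months and 0 at 6 months. Among 6 markers of macrophages and leukocytes 3 were higher at 2 months, and 2 higher and 1 lower at 6 months. For 5 endothelial markers 1 was lower and 1 higher at 2 months, and 1 higher at 6 months. Among 4 brown fat markers 2 were higher at 2 months, and 1 higher and 1 lower at 6 months. Of 5 erythroid markers 4 had no read in any library. The ratio of their summed level, which rests on *Alas2* alone, was 0.604 at 2 months and 4.30 at 6 months. Over all genes 22.5% were lower and 17.3% higher at 2 months, and 24.9% and 16.9% at 6 months. The csPIMT-/- library of 2 months stood apart by its lung markers, with a summed normalized count of 1160 over 5 genes against 1.73 to 17.7 in the other libraries. Of these 5 genes, 4 had no read in the control of 2 months and 2 had none in that of 6 months. The summed level of 4 atrial markers was 40740 and 115000 in the controls, and 325600 and 348300 in the csPIMT-/- libraries. At 2 months all 4 were higher by over 2-fold, but at 6 months 1 was higher and 2 were lower. The log2 ratio of csPIMT-/- over control also followed the GC content of the transcript across all genes, with Spearman's rho of 0.60 over 14964 genes at 2 months and 0.62 over 15028 genes at 6 months. The part of these markers in the results below was not tested. For the members, and for other factors and subunits named as lowest or highest, genotype ratios are also given after the GC trend of all genes was subtracted. The ratios of genes that overlap a member are given without this. *Tgs1* itself had ratios of 0.28 and 0.20, and of 0.66 and 0.54 after the subtraction.

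Levels are given as normalized counts, the reads on a gene divided by a size factor of the library, and per kilobase of transcript where genes are compared with each other. In the control hearts *Cox17* had the highest level, 5046 and 4269 normalized counts per kilobase at 2 and 6 months. *Ndufaf1* followed with a mean of 1286, then *Ndufaf3* with 1076 and *Cox10* with 876. *Ndufaf2*, *Surf1*, *Ndufaf4* and *Sco1* had means of 803, 794, 747 and 662, and in this stretch of the order the values of neighbouring genes in the 2 control libraries overlapped. *Cox15* with 506 and *Cox11* with 450 had the lowest levels per kilobase. The order between other neighbours held in both control libraries, although the means rest on 2 pools only.

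**Figure D1:**
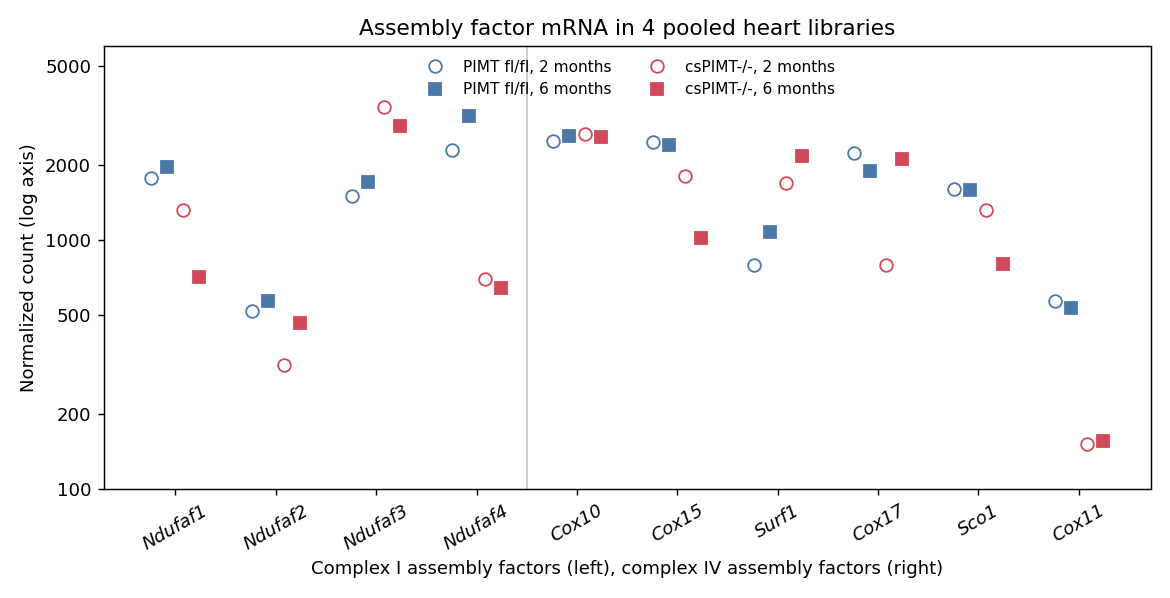
Normalized count of each assembly factor (log axis) in the 4 libraries, with controls in blue, csPIMT-/- in red, open circles for 2 months and filled squares for 6 months, 1 point per pool of 5 hearts. *Ndufaf4* and *Cox11* lie far lower in both csPIMT-/- libraries, *Ndufaf3* and *Surf1* lie higher, and *Cox10* lies between 2499 and 2664 in all 4.

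The 10 factors did not move together. Over both ages, *Ndufaf4* and *Cox11* fell in the csPIMT-/- hearts to 0.25 and 0.28 of the control level, and *Ndufaf3* and *Surf1* rose 1.95-fold and 2.08-fold. These were the 4 members called by limma at an adjusted p below 0.05, with genotype and age as terms over the 4 libraries and p-values adjusted over 14847 genes. Of all genes tested 17.5% were called lower and 11% higher, so 2 lower and 2 higher of 10 members were close to that background. The median log2 difference of the members was -0.66, against 0.03 over all genes. All 4 calls were lost without the mean trend (limma adjusted p between 0.065 and 0.10). With the GC trend subtracted they were lost too, with log2 differences of -0.36 for *Ndufaf4*, -1.73 for *Cox11*, 0.35 for *Ndufaf3* and 0.65 for *Surf1* (limma adjusted p between 0.099 and 0.39). No gene at all was called under either setting, the deleted *Tgs1* included (limma adjusted p = 0.065 and 0.22). The lost calls are therefore not particular to the members, but the settings differ in what they did to the log2 differences. Without the mean trend those of the called members were unchanged. Subtraction of the GC trend left *Cox11* almost as low as before (-1.83). It shrank the log2 differences of *Ndufaf4*, *Ndufaf3* and *Surf1*, which were -2.0, 0.97 and 1.06 before. With 1 residual degree of freedom the limma fit borrows most of its variance from other genes. That degree of freedom is the difference of the genotype effect between the ages, which stands in for replicate spread. The SE and p-values given here and below therefore do not measure the spread between pools or hearts. A genotype effect that changes with age makes them larger.

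In 6 members both csPIMT-/- values were below both control values, and in 2 members both were above, while the groups overlapped for *Cox10* and *Cox17*. Among all genes tested these shares were 35.9% and 35.2%. At 2 months the ratio of csPIMT-/- over control was below 0.5 for 3 members (*Ndufaf4*, *Cox11* and *Cox17*) and above 2 for 2 (*Ndufaf3* and *Surf1*). Of the 15152 genes that reached 10 reads in either library, 22.5% were below 0.5 and 17.3% above 2. At 6 months the ratio was below 0.5 for 4 members (*Ndufaf1*, *Ndufaf4*, *Cox11* and *Cox15*) and above 2 for *Surf1* alone, against 24.9% and 16.9% of 15218 genes. The median ratio of the members was 0.739 at 2 months and 0.641 at 6 months, where that of all genes was 0.999 and 1.003.

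**Figure D2:**
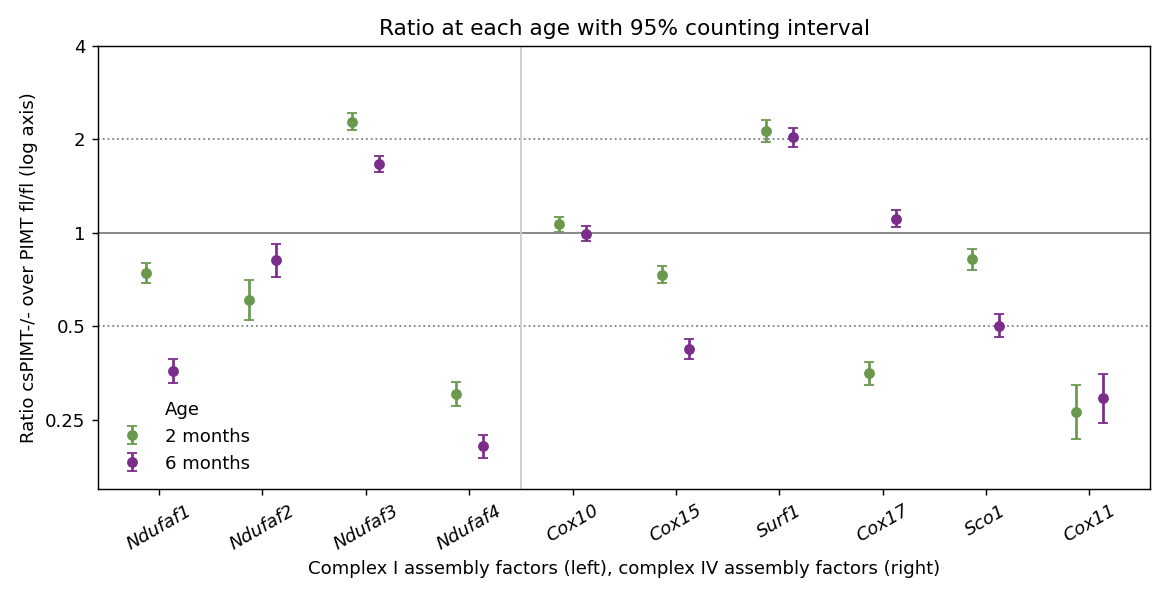
Ratio of csPIMT-/- over PIMT fl/fl (log axis) for each assembly factor at 2 months (green) and 6 months (purple), with bars for the 95% Clopper-Pearson interval of the 2 read counts, which covers counting error only. Dotted lines mark 0.5 and 2. *Cox17* is low at 2 months and near 1 at 6 months, while *Ndufaf1*, *Cox15* and *Sco1* are lower at 6 months than at 2.

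*Ndufaf3* and *Ndufaf4* encode a pair of proteins that bind each other early in the assembly of the arm of complex I that projects into the matrix. Their mRNAs moved in opposite directions. *Ndufaf4* had 2303 (2 months) and 3126 (6 months) normalized counts in control hearts, where csPIMT-/- hearts had 698 and 642. Both csPIMT-/- values were far below both controls. The ratio was 0.303 at 2 months (95% Clopper-Pearson interval 0.276 to 0.332) and 0.205 at 6 months (0.188 to 0.224). The log2 difference over both ages was -2.0 ± 0.25 (SE, limma adjusted p = 0.016). With any 1 of the 4 libraries left out it ran from -2.22 to -1.78. Such fits, here and for the members below, have no age term. They set both ages of 1 genotype against a single age of the other, so genotype is partly mixed with age in them. The call was lost without the mean trend (limma adjusted p = 0.065) and with the GC trend subtracted (log2 difference -0.36, limma adjusted p = 0.39), settings under which no gene was called. A lower level in a whole heart can come from less RNA per cell or from fewer cells that express the gene, which cannot be told apart in pooled tissue. *Ndufaf4* has the lowest GC content of the 10 transcripts, 39.5%, and at 2 months its log2 ratio of -1.72 was next to the median of -1.57 of genes with a like GC content. After the GC trend was subtracted its ratio was 0.912 at 2 months and 0.664 at 6 months.

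*Ndufaf3* had 1494 and 1707 normalized counts in the controls, and 3411 and 2853 in the csPIMT-/- libraries of 2 and 6 months. The groups did not overlap. The ratio was 2.28 (2.15 to 2.43) at 2 months and 1.67 (1.58 to 1.77) at 6 months, and the log2 difference over both ages was 0.97 ± 0.23 (limma adjusted p = 0.037). It was called without the csPIMT-/- library of 6 months, but not without the control of 2 months (log2 difference 0.87, limma adjusted p = 0.12), the control of 6 months (1.06, 0.087) or the csPIMT-/- library of 2 months (0.84, 0.065). Its transcript has the highest GC content of the 10, 56.0%, and after subtraction of the GC trend the ratios were 1.5 and 1.08. Within 1 library, which needs no scaling between libraries, there were 0.649 and 0.546 reads of *Ndufaf3* per read of *Ndufaf4* in the controls, and 4.89 and 4.44 in csPIMT-/- hearts. These reads per read are not corrected for GC content, in which the transcripts stand furthest apart of the 10 (56.0% and 39.5%). After the GC trend was subtracted the ratios of *Ndufaf4* were 0.912 and 0.664, far closer to those of *Ndufaf3*. The exons of *Ndufaf3* share 48 bases with *Impdh2* on the other strand, and the strand setting of the counting is not given in the sources used here. The ratios of *Impdh2* were 1.5 and 1.58.

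The promoters of this oppositely moving pair are shown because both genes start in GC-rich windows, and a motif searched for was found in 1 of them. Each window runs from 250 bases before to 50 bases after the RefSeq start (GRCm38.p6), 5′ to 3′ on the strand of the gene, at chr4:24897833-24898132 (plus strand) for *Ndufaf4* and chr9:108567387-108567686 (minus strand) for *Ndufaf3*. Capitals mark matches to the letters GCGCATGC, the core of the site of NRF1, a factor known to act on many nuclear genes of the respiratory chain.
Ndufaf4: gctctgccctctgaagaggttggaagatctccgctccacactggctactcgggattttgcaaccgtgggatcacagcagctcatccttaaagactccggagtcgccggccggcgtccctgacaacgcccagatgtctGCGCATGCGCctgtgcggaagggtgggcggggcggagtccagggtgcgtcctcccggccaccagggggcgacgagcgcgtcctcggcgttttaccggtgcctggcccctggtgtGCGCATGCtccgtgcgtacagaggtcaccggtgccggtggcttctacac
Ndufaf3: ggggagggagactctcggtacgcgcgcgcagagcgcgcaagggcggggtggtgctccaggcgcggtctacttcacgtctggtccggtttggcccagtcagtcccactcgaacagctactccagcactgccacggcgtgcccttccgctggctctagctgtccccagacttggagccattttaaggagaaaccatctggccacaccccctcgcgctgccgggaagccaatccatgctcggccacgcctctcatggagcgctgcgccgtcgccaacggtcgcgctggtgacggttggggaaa
The window of *Ndufaf4* held 3 such matches on both strands, of which a pair on opposite strands, at positions -113 and -111 from the start, overlap, while the last lies at position 2. That of *Ndufaf3* held none. These letters occurred in 2.71% of all 32851 windows of the same length. The GC content of both windows was 66.0%, while that of the transcripts differed.

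*Ndufaf1* encodes a chaperone of the membrane arm of complex I. It had 1766 and 1968 normalized counts in the controls, and 1313 and 708 in the csPIMT-/- libraries. Both csPIMT-/- values lay below both controls, and that of 6 months was the lowest. The ratio was 0.743 (0.690 to 0.801) at 2 months and 0.360 (0.330 to 0.392) at 6 months. The log2 difference over both ages was -0.95 ± 0.32, which was not called by limma (adjusted p = 0.080) but was called by DESeq2 on the recovered reads (adjusted p = 0.032), and by limma without the csPIMT-/- library of 2 months (-1.39, adjusted p = 0.036). After subtraction of the GC trend the ratios were 1.16 and 0.607.

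*Ndufaf2* encodes a relative of a complex I subunit that stays on a late intermediate until assembly is complete. Its normalized counts were 519 and 570 in the controls, and 316 and 465 in csPIMT-/- hearts of 2 and 6 months. Both csPIMT-/- values lay below both controls. The ratios were 0.608 (0.523 to 0.705) and 0.816 (0.722 to 0.922), with a log2 difference of -0.50 ± 0.29 (limma adjusted p = 0.23). After the GC trend was subtracted they were 0.820 and 1.14.

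Heme A of complex IV is made by *Cox10*, which adds a farnesyl tail to heme B, and by *Cox15*, which oxidizes the product. *Cox10* had 2499 and 2610 normalized counts in the younger and older controls, where csPIMT-/- hearts had 2664 and 2595. The 4 values overlapped, with ratios of 1.07 (1.01 to 1.13) and 0.994 (0.942 to 1.05). The paper lists *Cox10* as lower in csPIMT-/- hearts at both ages, by RNA-seq and by RT-qPCR, which these ratios did not show. The log2 difference over both ages was 0.04, with a 95% interval of -0.48 to 0.56 (limma adjusted p = 0.89). This direction depends on the processing, since after subtraction of the GC trend the log2 difference was -0.50 and the ratios were 0.739 and 0.669. In 49 exon bases *Cox10* overlaps an antisense gene that is not listed in the files.

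*Cox15* had 2458 and 2394 normalized counts in the controls, close to each other, and 1805 and 1015 in csPIMT-/- hearts. The groups did not overlap. The ratio was 0.734 (0.689 to 0.782) at 2 months and 0.424 (0.394 to 0.457) at 6 months. The log2 difference of -0.84 ± 0.27 was not called by limma (adjusted p = 0.074), and DESeq2 gave an adjusted p of 0.043. Without the csPIMT-/- library of 2 months limma called it (-1.26, adjusted p = 0.036). There were 1.02 and 1.09 reads of *Cox10* per read of *Cox15* in the controls, 1.48 in csPIMT-/- at 2 months and 2.55 at 6 months, each with an interval that did not reach those of the controls. These reads per read are not corrected for GC content, which is 54.9% in the *Cox10* and 47.7% in the *Cox15* transcript. After the GC trend was subtracted the ratios of *Cox15* were 0.973 and 0.578, and those of *Cox10* 0.739 and 0.669. At 2 months *Cox10* then had the lower ratio, opposite to the direction of the reads per read. *Cox15* shares 444 exon bases with *Entpd7* on the other strand, whose ratios were 1.29 and 1.24.

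*Surf1*, whose loss causes Leigh syndrome in people, acts early in complex IV assembly, when heme A enters the catalytic subunit. It had 793 and 1070 normalized counts in the controls, and 1687 and 2177 in the csPIMT-/- libraries. Every csPIMT-/- value was above every control. The ratio was 2.13 (1.96 to 2.32) at 2 months and 2.03 (1.89 to 2.18) at 6 months, and the log2 difference was 1.06 ± 0.22 (limma adjusted p = 0.029). The call was lost when any 1 library was left out, with log2 differences between 0.84 and 1.27 and limma adjusted p-values between 0.051 (without the csPIMT-/- library of 2 months) and 0.16 (without the control of 2 months). Subtraction of the GC trend left ratios of 1.63 and 1.49, the highest of the 10 members at both ages. *Surf1* shares 137 exon bases with *Surf2* on the other strand, for which the ratios were 0.940 and 0.821.

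Copper reaches complex IV through *Cox17*, a small soluble chaperone of the space between the membranes, which passes it on to *Sco1* and *Cox11*. *Cox11* loads the copper site of the catalytic subunit and *Sco1* that of the second subunit. *Cox11* had 570 and 530 normalized counts in the controls, and 152 and 156 in the csPIMT-/- libraries. The values of each genotype were close to each other and far from those of the other. The ratios were 0.266 (0.218 to 0.323) and 0.294 (0.244 to 0.352), and the log2 difference over both ages was -1.83 ± 0.31 (limma adjusted p = 0.021). The call was lost without the control of 2 months (log2 difference -1.78, limma adjusted p = 0.064) or of 6 months (-1.88, 0.066), and held without either csPIMT-/- library. *Cox11* has a transcript GC content of 49.8%, where the median log2 ratio of all genes was -0.17 at both ages, and its ratios after subtraction of the trend were 0.286 and 0.310. It was the only member below the 10th percentile of genes of like GC content at both ages. *Cox11* shares 688 exon bases with *Tom1l1* on the other strand, which had 788, 704, 1020 and 805 normalized counts in the control and csPIMT-/- libraries of 2 months and then of 6 months.

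*Sco1* had 1606 and 1589 normalized counts in the controls, and 1320 and 799 in csPIMT-/- hearts of 2 and 6 months. Its ratios were 0.822 (0.762 to 0.887) and 0.503 (0.461 to 0.547), and the groups did not overlap. The log2 difference of -0.64 ± 0.27 was not called (limma adjusted p = 0.13). After the GC trend was subtracted the ratios were 1.15 and 0.739.

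*Cox17* was the member that differed most between the ages. Its normalized counts were 2240 (2 months) and 1895 (6 months) in control hearts, where csPIMT-/- hearts had 790 and 2108. Only the csPIMT-/- library of 2 months was low, the same library in which the lung markers were highest. The ratio was 0.353 (0.323 to 0.385) at 2 months and 1.11 (1.05 to 1.18) at 6 months, and after the GC trend was subtracted 0.433 and 1.38. Over both ages the log2 difference was -0.67 ± 0.43 (limma adjusted p = 0.27). Without the csPIMT-/- library of 2 months it was 0.03, and without that of 6 months -1.38 (limma adjusted p = 0.037). For *Cox17* and *Cox11*, which take up successive steps of the copper route, there were 3.93 and 3.57 reads of *Cox17* per read of *Cox11* in the controls, 5.21 in csPIMT-/- at 2 months and 13.5 at 6 months. With 1 library for each age and genotype a difference between the ages could not be tested. The exons of *Cox17* share 257 bases with another gene model on the same strand that is not listed in the files.

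The promoters of the complex IV factors that limma called are shown in the same way, at chr11:90637934-90638233 (plus strand) for *Cox11*, which fell, and chr2:26916481-26916780 (minus strand) for *Surf1*, which rose. Capitals mark the letters CCGGAAG on either strand, the core of the site of ETS factors such as GABPA, also called NRF2, a known activator of complex IV genes.
Cox11: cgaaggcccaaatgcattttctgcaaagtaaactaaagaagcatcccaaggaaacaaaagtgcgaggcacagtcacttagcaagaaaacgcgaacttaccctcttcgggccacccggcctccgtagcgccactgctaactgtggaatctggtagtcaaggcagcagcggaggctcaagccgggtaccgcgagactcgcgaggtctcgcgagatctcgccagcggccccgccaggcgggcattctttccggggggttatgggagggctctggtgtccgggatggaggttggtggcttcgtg
Surf1: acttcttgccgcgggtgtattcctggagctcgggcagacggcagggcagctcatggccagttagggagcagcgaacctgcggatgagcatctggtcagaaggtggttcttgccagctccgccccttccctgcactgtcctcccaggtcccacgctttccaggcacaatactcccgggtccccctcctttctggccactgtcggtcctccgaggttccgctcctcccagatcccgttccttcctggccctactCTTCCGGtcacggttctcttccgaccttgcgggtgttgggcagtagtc
*Surf1* held 1 match, at position 3 on the opposite strand, and *Cox11* none. Of the 9 members with a window in the RefSeq table, 5 held these letters (*Ndufaf1*, *Cox10*, *Cox15*, *Sco1* and *Surf1*), against 8.86% of all windows. Their ratios ran from 0.734 to 2.13 at 2 months, so members with a match were found on both sides of 1. On either strand the letters AAGATGG, the YY1 core, occurred in the window of *Cox10* and in 6.34% of all windows. The letters AAGGTCA, a site of the estrogen-related receptors, occurred in none of the 9 and in 4.72% of all windows.

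Members with a higher transcript GC content had, for the most part, higher ratios. Spearman's rho over the 10 members was 0.52 at 2 months and 0.71 at 6 months, which describes genes that share the same libraries. At 2 months *Cox11* and *Cox17* lay below the 10th percentile of genes in the same 2% bin of GC content and the other 8 lay between the 10th and 90th. At 6 months only *Cox11* did. With the trend subtracted the members below 0.5 were *Cox11* and *Cox17* at 2 months and *Cox11* at 6 months, and none was above 2.

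**Figure D3:**
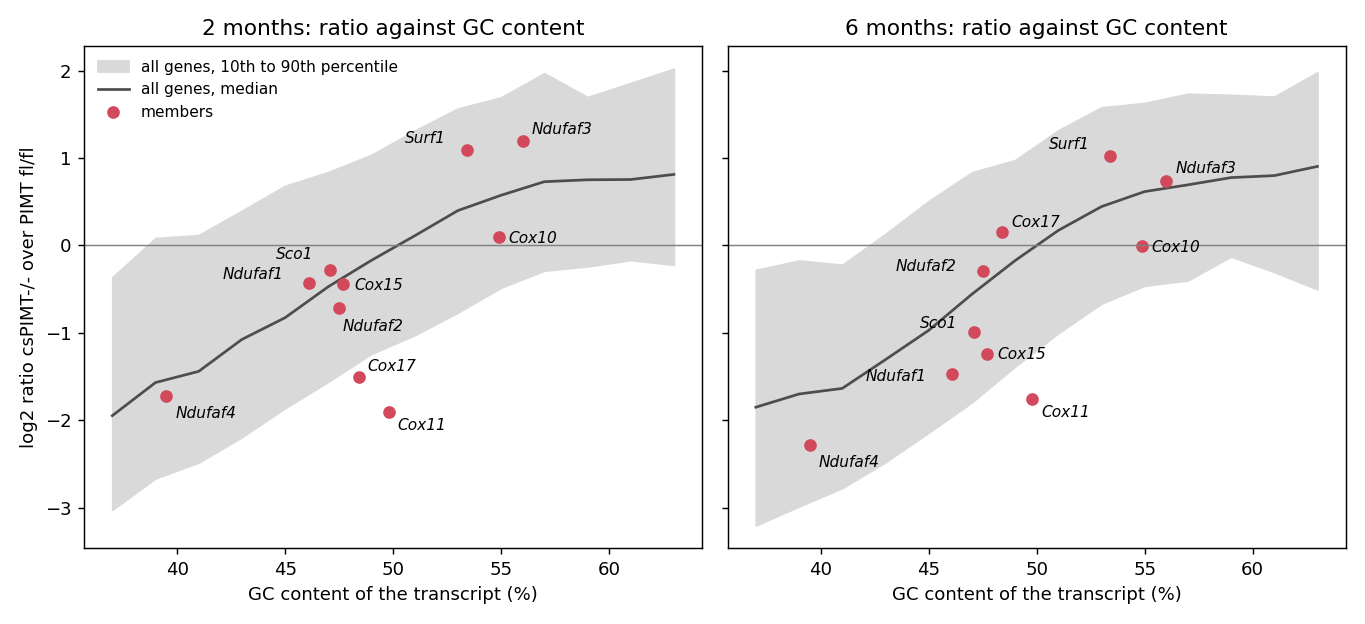
log2 ratio of csPIMT-/- over PIMT fl/fl against the GC content of the transcript at 2 months (left) and 6 months (right), with the 10 members in red, the median of all genes in 2% bins as a line and their 10th to 90th percentile in grey. *Ndufaf4* at 39.5% lies near the line at 2 months and *Ndufaf3* at 56.0% near it at 6 months, and *Cox11* at 49.8% lies below the grey band at both ages.

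The change with age was small in the control hearts. The ratio of 6 over 2 months lay between 0.846 (*Cox17*) and 1.36 (*Ndufaf4*) for all 10 members, and none passed 2-fold, against 4.65% of 15132 genes lower and 9.01% higher. After the deletion it lay between 0.540 (*Ndufaf1*) and 2.67 (*Cox17*). *Cox17* was the 1 member past 2-fold, with an interval of 2.44 to 2.92, while 8.2% of 15057 genes were lower and 9.71% higher. *Cox15* and *Sco1* had ratios of 0.563 (0.518 to 0.610) and 0.605 (0.551 to 0.665) between the csPIMT-/- libraries, with 0.974 and 0.990 between the controls. With the GC trend subtracted the age ratios of the controls lay between 0.809 (*Cox17*) and 1.36 (*Surf1*), with *Ndufaf4* at 0.967, and those of csPIMT-/- hearts between 0.525 (*Ndufaf1*) and 2.58 (*Cox17*). For *Cox10* and *Cox11* the intervals of both age ratios, without that subtraction, included 1. The age and genotype ratios share libraries.

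Of 48 other assembly factors of the respiratory chain and ATP synthase, 47 were found and 46 had reads enough to be tested. limma called 7 lower and 8 higher, where 17.5% and 11% of all genes were called, and their median log2 difference was 0.08. At 2 months 7 were below 0.5 and 11 above 2, against 22.5% and 17.3% of all genes. At 6 months the counts were 11 and 6, against 24.9% and 16.9%. The lowest by the mean log2 ratio of both ages were *Tmem126b*, a partner of *Ndufaf1* in the membrane arm chaperone complex, with ratios of 0.442 and 0.244, and *Lrpprc*, which stabilizes mitochondrial mRNAs, with 0.505 and 0.226. *Ttc19* of complex III had 0.434 and 0.279, *Sdhaf3* of complex II 0.431 and 0.321, and *Tmem70* of ATP synthase 0.461 and 0.303. After the GC trend was subtracted *Sdhaf3* turned to 1.25 and 1.01, while *Tmem126b* had 0.783 and 0.487, *Lrpprc* 0.709 and 0.333, *Ttc19* 0.781 and 0.570, and *Tmem70* 0.781 and 0.572. All 5 were called lower by limma (adjusted p between 0.022 and 0.045).

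The 5 highest were all from the list of other complex IV assembly factors and were called higher by limma (adjusted p between 0.023 and 0.039). *Fdx2*, a ferredoxin, had ratios of 3.49 and 3.16, and *Fdxr*, which passes electrons to ferredoxins, had 3.35 and 2.20. A mitochondrial ferredoxin, not necessarily *Fdx2*, is the known electron donor of *Cox15*, whose own ratios were below 1. *Coa4* had 2.98 and 2.22, *Cox19*, a partner of *Cox11* in the copper route, 2.08 and 2.36, and *Pet100* 2.09 and 2.11. After the GC trend was subtracted *Fdx2* had 2.06 and 1.83, *Fdxr* 2.02 and 1.29, *Coa4* 3.20 and 2.34, *Cox19* 1.99 and 2.16, and *Pet100* 2.15 and 2.11. Of the 21 other complex IV assembly factors tested, limma called 2 lower and 5 higher, and of the 11 other complex I factors 1 and 1. Of the 14 factors of complexes II, III and V it called 4 lower and 2 higher. All these counts are to be read against 17.5% lower and 11% higher over all genes.

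**Figure D4:**
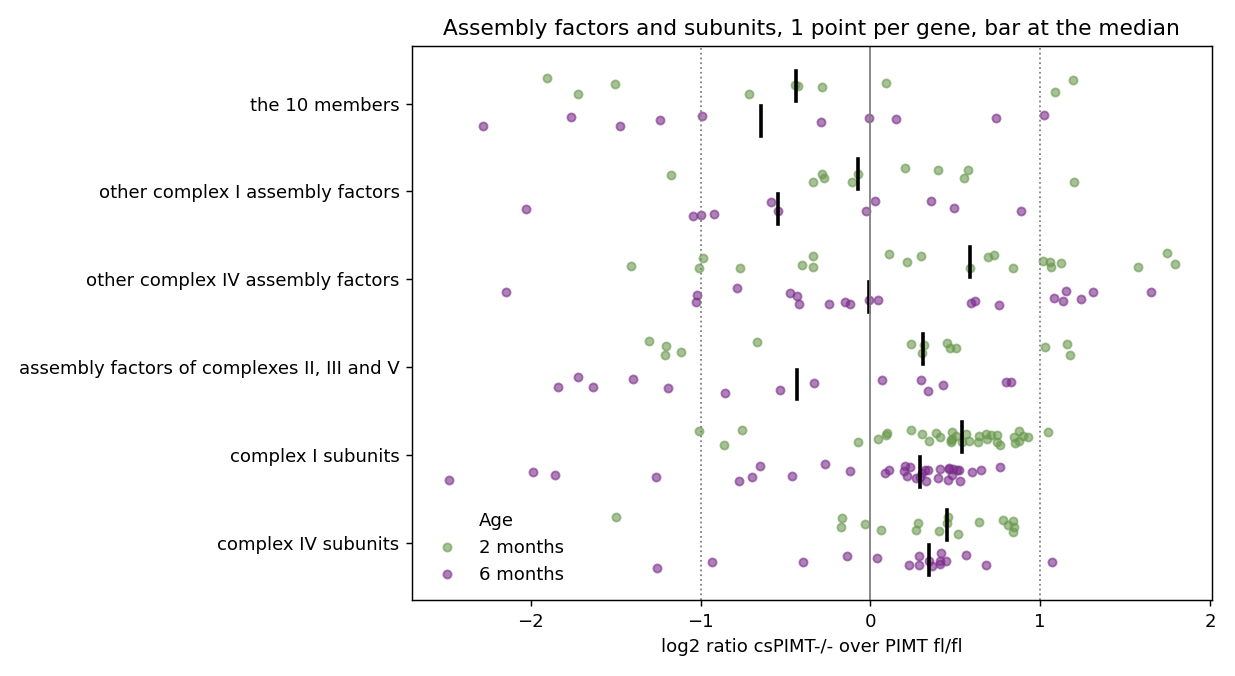
log2 ratio of csPIMT-/- over PIMT fl/fl for the 10 members, 3 lists of other assembly factors and the subunits of complexes I and IV, with 1 point per gene, green for 2 months, purple for 6 months and a black bar at each median. The members spread from -2.28 to 1.19 with medians of -0.44 and -0.64, while most subunits lie above 0.

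Most subunits of the complexes that these factors assemble had ratios above 1. Of 35 complex I subunits tested, 31 had a ratio above 1 at 2 months and 25 at 6 months, with median ratios of 1.46 and 1.22. Over all genes 7559 of 15152 were above 1 at 2 months and 7626 of 15218 at 6 months. limma called 3 lower and 1 higher, against 17.5% and 11% of all genes. Of 17 complex IV subunits, 13 were above 1 at each age, the median ratios were 1.37 and 1.27, and the 1 call by limma was lower. Among those with the same direction at both ages *Ndufa5* (0.497 and 0.179) and *Cox7b* (0.354 and 0.418) were the lowest and *Ndufs7* (2.06 and 1.51) and *Ndufa11* (1.81 and 1.70) the highest. With the GC trend subtracted *Ndufa5* had 0.507 and 0.177, *Cox7b* 0.841 and 1.13, *Ndufs7* 1.22 and 0.881, and *Ndufa11* 1.12 and 1.03, so the direction of *Cox7b* and *Ndufs7* turned at 6 months. After subtraction of the GC trend the median log2 ratio of the members was -0.09 at 2 months and -0.51 at 6 months, that of the complex I subunits 0.29 and -0.16, and that of the complex IV subunits 0.31 and 0.18. The difference between the lists was not tested.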

How the data were processed

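Directional libraries of polyadenylated RNA (TruSeq, RIN above 7) were sequenced single-end on a HiSeq2500. The authors trimmed and filtered the reads, ran STAR against mm10 and htseq-count on a UCSC annotation (HTSeq 0.6.1p1 per the submitters' processing notes), and tested with DESeq2. They deposited 1 normalized count (a signal) per gene and library. All values (100%, tolerance 1e-06 reads) were whole multiples of the value of 1 read, so reads were recovered. PCR duplicates are unknown and intervals cover counting error only.

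At each age the ratio of normalized counts was taken for genes with at least 10 reads in 1 library, with a 95% Clopper-Pearson interval (scipy 1.17.1) and no test. Genes past 2-fold were counted. The log2 ratios used a pseudocount of 0.5 reads. Over both ages limma 3.58.1 (R 4.3.3) was fitted to log2(normalized count + 1) of genes with at least 10 in 2 libraries, with genotype, age and a mean trend (1 residual and 4.01 prior degrees of freedom) and Benjamini-Hochberg adjustment. edgeR 4.0.16 and DESeq2 1.42.0 ran on recovered reads as alternatives. The limma script was tested on simulated data. The GC content was that of 1 GENCODE M21 transcript per gene (GRCm38, 97.9% of genes), and its trend a lowess curve (span 0.3). Of the 48 other factors 1 symbol was not found. Of them, up to 5 lowest and 5 highest with at least 100 reads in 1 library and 1 direction at both ages were named, and up to 2 of each of the subunits. The members and lists were chosen with earlier results of these data known. The sources give no sequencing batch.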

Additional observations from a re-analysis of the deposited data

Results flagged for a closer look

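For *Cox17* the genotype ratio lay on opposite sides of 1 at the 2 ages, with counting intervals that did not reach 1. The ratio at 6 months was 3.15 times that at 2 months. The difference between the ages was not tested, since each age and genotype had 1 library. With the mean of both controls in place of the control of the same age the ratio at 6 months was 1.02, and with the control of 2 months it was 0.941, so the direction at 6 months rests on the control used, while the ratio at 2 months stayed below 0.5 with either control (0.353 and 0.417). The same reversal of sides was seen in 6 of the other assembly factors, all above 1 at 2 months and below 1 at 6 months (*Taco1*, *Cmc2*, *Tmem177*, *Sdhaf4*, *Uqcc1* and *Atpaf1*), that is in the direction opposite to *Cox17*.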

How the results depend on the processing

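The limits are those of 1 library for each age and genotype. The spread between pools could not be measured, and a change of the genotype effect with age could not be tested. Counting intervals cover counting error only. The limma fit already sets each csPIMT-/- library against the control of its age. With genotype as the only term 2 members were called lower and 2 higher, as before. The members lower by over 2-fold at 2 months stayed at 2 or 3 of 10 under every alternative. The 2 higher ones became 1 when scaled to library totals, against the mean of both controls or when the whole counting interval had to pass 2, and 0 against the control of 6 months or with the GC trend subtracted. At 6 months the 4 lower members became 1 with the GC trend subtracted, and the 1 higher member became 0 with TMM scaling, with scaling to library totals, with the GC trend subtracted and by the whole interval. The counts of the age comparisons did not move under TMM scaling or subtraction of the GC trend.

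With 2 members lower and 2 higher in limma, DESeq2 called 4 lower (*Ndufaf1* and *Cox15* in addition) and 2 higher, and edgeR the same 4 genes as limma. limma without the mean trend, and limma with the GC trend subtracted, called 0 members, 0 other factors and 0 of all genes in either direction, although 5965 and 3566 genes, among them 4 and 2 members, had an unadjusted p below 0.05. *Cox10* turned to a log2 difference of -0.50 with the GC trend subtracted. Alternatives that leave out 1 library, with genotype alone as the term and the lone library assumed to vary like the rest, were chosen after seeing the data. They called 1 to 4 members lower and 0 to 1 higher. *Ndufaf4* was called in all 4 of these fits, and it was the only call without either control. Without the csPIMT-/- library of 2 months *Cox11*, *Cox15*, *Ndufaf1* and *Ndufaf4* were called lower and none higher, and without that of 6 months *Cox11*, *Cox17* and *Ndufaf4* lower and *Ndufaf3* higher. *Cox17* ranged from -1.38 (without the csPIMT-/- library of 6 months) to 0.033 (without that of 2 months), and so reversed. Of the other factors, 0 to 5 were called lower and 0 to 4 higher, against 7 and 8 with all libraries. Over all genes 366 to 1882 were called lower and 274 to 1082 higher, against 2595 and 1637, with the lowest counts without a control library.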
